A study of Mus musculus with 1457 samples.

Results

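A set of 9 genes that sense blood flow or respond to it was followed across sorted cells of the mouse embryonic aorta. They are the shear-induced transcription factors Klf2, Klf4 and Klf6, the vessel-protective genes Nos3 and Thbd, the mechanically gated cation channels Piezo1 and Piezo2, and the polycystins Pkd1 and Pkd2. The genes were chosen by name from their known roles, and all 9 were found among the 36131 genes held in both count tables.

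Blood that moves along a vessel wall drags on the endothelial cells, and this shear stress is read by ion channels, by junctional and cilium-borne receptors, and by the polycystin complex. Laminar shear signals through the kinases MEKK3, MEK5 and ERK5 to MEF2 factors, which switch on Klf2 and Klf4. These in turn raise endothelial nitric oxide synthase (Nos3) and thrombomodulin (Thbd), which widen vessels and hold back clotting. In the embryo, the onset of heartbeat and flow is known to favour the emergence of blood stem cells from the dorsal aorta.

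The cells came from the aorta-gonad-mesonephros region (AGM) of ICR embryos at E10.5 and E11.5, and single cells were profiled by the Smart-seq2 method, which amplifies full-length cDNA. All gates lacked the erythroid surface marker TER119 and CD45. Endothelium (Endo) was sorted as CDH5+ cells without KIT, CD41 or reporter signal. Hemogenic endothelium (HE), the endothelium that gives rise to blood, had the same surface markers plus reporter signal of GFI1 or RUNX1b. The gate for cells in transition (EHT) took CDH5+ KIT+ CD41+ cells with the GFI1 reporter, and cells of the intra-aortic hematopoietic clusters (IAHC) carried the GFI1b reporter too. The mesenchymal gate (Mes) held CDH5- cells with the RUNX1b reporter. In a separate set, ACE (CD143) and GFI1 divided the CDH5+ cells into ACE- GFI1- (Endo), ACE+ GFI1- (ACE+) and ACE+ GFI1+ (HE) cells.

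Embryos with the genotype Gfi1:Tomato/WT Gfi1b:GFP/WT were sorted at E10.5 into Endo (74 cells), HE (95), EHT (41) and IAHC (42), and at E11.5 into Endo (16), HE (40) and IAHC (22). Another sort of this genotype, titled E11.5 but with a stage field of E10.5, held 41 Endo, 43 HE and 42 EHT cells and is called the stage-conflict set below. Gfi1:Tomato/Tomato Gfi1b:GFP/GFP embryos, labelled knockout (KO), were represented by 42 HE cells of E10.5. From E10.5 Runx1b:RFP/WT embryos came 53 Endo cells and larger HE and Mes sorts (17.98% and 7.344% of all cells). A second HE sort (19.01% of all cells) is titled KO although its genotype field is heterozygous, and 91 Mes cells have the genotype Runx1b:RFP/RFP. The ACE set, of genotype Gfi1:Tomato/WT at E10.5, held 14 Endo and 39 HE cells and an ACE+ sort of 7.962% of all cells. All groups thus carry at least 1 reporter allele, controls included. The labels do not describe the Endo gate of the Runx1b line.

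No label names an embryo, so each of the 19 groups is 1 sample and its cells were summed. Levels are the reads of a gene scaled to 1000000 reads of its group (CPM). Groups held 14577594 to 199887490 reads, and the 20 pan-endothelial marker genes summed to 11860 to 15850 CPM in Endo, 9354 to 24420 CPM in the 6 HE sorts other than that labelled Gfi1/Gfi1b KO, 1919 to 6635 CPM in EHT and IAHC, and 727 and 3039 CPM in Mes. In the Runx1b HE sort only 50% of the cells had reads of at least 10 of these 20 markers, and 12 mesenchyme markers summed to 4265 CPM, close to the 5081 and 5650 CPM of Mes. In E11.5 IAHC, 63.64% of the cells had at least 1% of their reads in globin genes; these are called erythroid-like. Runx1 stood at 17.8 CPM in Runx1b HE, 1.47 CPM in the HE cells titled KO, and 35.3 and 20.1 CPM in heterozygous and KO Mes. In the HE cells labelled Gfi1/Gfi1b KO, Gfi1 was at 218.9 CPM against 55.2 CPM in heterozygous HE. Gene counts do not tell whether such reads come from the reporter alleles, so they neither bear out nor contradict the label. Directions drawn from this sort are those of the cells labelled KO.

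In the GRCm38 assembly, Klf2 (ENSMUSG00000055148) lies at chr8:72319033-72321656 on the plus strand, Klf4 (ENSMUSG00000003032) at chr4:55527143-55532466 on the minus strand and Klf6 (ENSMUSG00000000078) at chr13:5861482-5870394 on the plus strand. Nos3 (ENSMUSG00000028978) lies at chr5:24364810-24384474 and Thbd (ENSMUSG00000074743) at chr2:148404466-148408188. Piezo1 (ENSMUSG00000014444) lies at chr8:122481698-122551329, Piezo2 (ENSMUSG00000041482) at chr18:63010213-63387183, Pkd1 (ENSMUSG00000032855) at chr17:24549834-24596508 and Pkd2 (ENSMUSG00000034462) at chr5:104459450-104505819. The union of annotated exons runs from 1847 bases in Klf2 to 17415 bases in Pkd1. Levels of different genes are therefore compared only per kilobase of exon.

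Per kilobase of exon, Klf2 had the highest median of the 9 genes in both endothelial gates. Its median level was 74.4 CPM per kilobase over the 5 Endo sorts and 90.6 over the 6 HE sorts. Thbd (29.04 and 21.93), Klf6 (28.3 and 29.3) and Nos3 (19.18 and 32.02) followed in the Endo and HE sorts. Piezo1 (12.7 and 9.69) and Klf4 (10.2 and 11.9) came next. Pkd2 stood at 5.28 and 5.27, and Pkd1 at 2.80 and 3.94. Piezo2 changed place in this order, with 10.1 in Endo and 0.720 in HE. Ranges of neighbouring genes in this order overlapped over the Endo sorts, except those of Klf6 (22.4 to 69.9) and Nos3 (12.9 to 21.7). The lowest Klf2 value in Endo (16.6, in the ACE set) lay inside the Piezo1 range (7.64 to 18.7). Klf2 did not lead in the ACE set, where it was below Klf6 (25.3) in Endo and, at 21.98, below Nos3 (41.7) in HE.

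RefSeq start-site windows were at hand for 6 of the 9 genes (Klf2, Klf4, Klf6, Piezo1, Pkd1 and Pkd2). The 250 bases before each start were searched on both strands for CTANNNNTAG, because MEF2 is the step that links shear to Klf2. At its N positions this pattern is looser than the core that MEF2 factors bind, as they take any base where that core has A or T. Its other letters were fixed, so sites with other letters there were not counted. Klf2 had 1 match, from position -118 to -109 relative to its RefSeq start, and no match was found in the other 5 windows. Of 27025 promoters of the same length, 3.23% held a match to this pattern, which is not the share with a MEF2 core. The stretch below is chr8:72318914-72318983 of GRCm38.p6, plus strand, with the match in capitals.
Klf2 upstream: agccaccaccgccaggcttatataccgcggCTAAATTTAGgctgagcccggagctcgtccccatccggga
CACCC, the core of KLF-bound sites (GGGTG on the other strand), does not overlap that motif. It occurred once each in the windows of Klf2 (after the GENCODE start of the gene), Piezo1 and Pkd2 and in 51.3% of all promoters. A match describes these letters only.

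**Figure D1:**
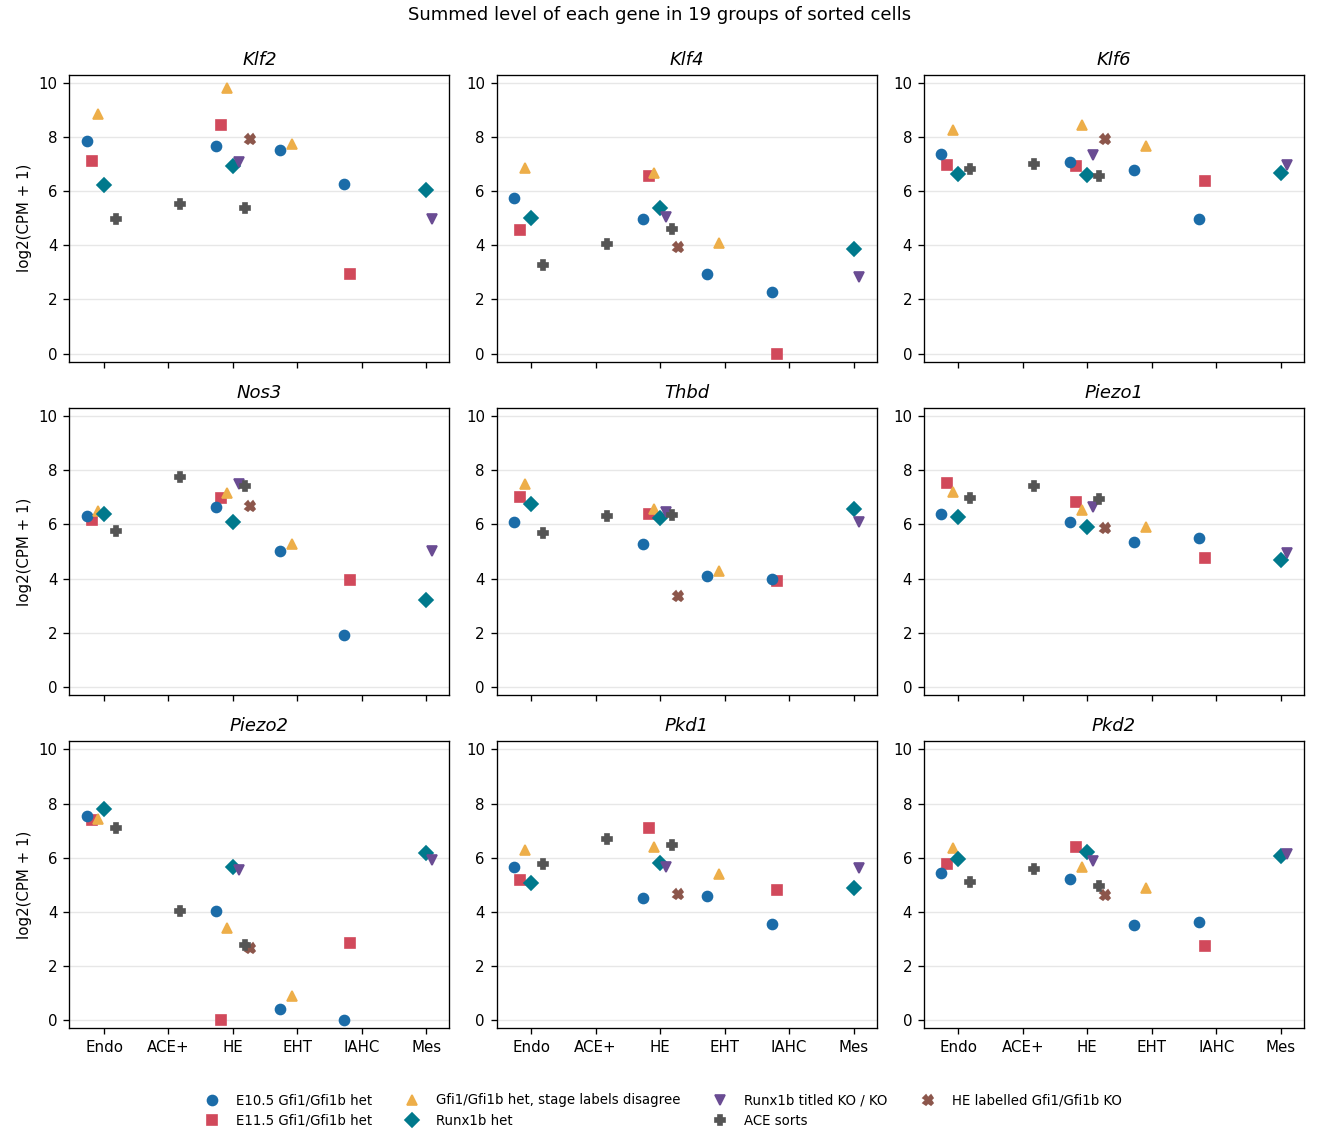
Level of each gene as log2(CPM + 1) on the y axis against the sort gate on the x axis, 1 point per group of summed cells, 19 points per panel, coloured by set. Nos3, Thbd, Piezo1, Piezo2 and Pkd2 are lower in every EHT and IAHC group than in every Endo group, and Piezo2 is higher in each of the 5 Endo groups than in any other group. The share of all genes that separate this way was not counted.

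The EHT and IAHC gates held less of most of these transcripts than the endothelial gates. In the mean of the EHT and IAHC gates against the mean of the Endo and HE gates, 6 of the 9 genes fell past an adjusted p of 0.05 (edgeR's quasi-likelihood F-test on 18 sums in 6 sort sets, Benjamini-Hochberg over 21431 genes): Klf2, Klf4, Nos3, Thbd, Piezo1 and Pkd2. Of all genes tested, 4.47% fell in this contrast, and 403 genes rose. The log2 ratio was below 0 for all 9, with a median of -2.05 against 0.01 over all genes tested. The general endothelial program fell beside them, since 17 of 20 pan-endothelial markers fell with a median log2 ratio of -1.80, and 9 of 12 hematopoietic markers rose. The hematopoietic list includes Kit, Itga2b (which encodes CD41), Gfi1 and Gfi1b. The gates were drawn on these, so any rise of theirs is not independent of the sort. Markers of other blood cells also had reads in these gates. The 8 macrophage markers summed to 876 CPM in stage-conflict EHT, and their part in these ratios was not tested. The 9 erythroid markers summed to 479600 CPM in E11.5 IAHC, or 44.4 CPM once erythroid-like cells were left out, an alternative run for each ratio. In sums of cells, fewer cells with a transcript and less transcript per cell cannot be told apart.

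**Figure D2:**
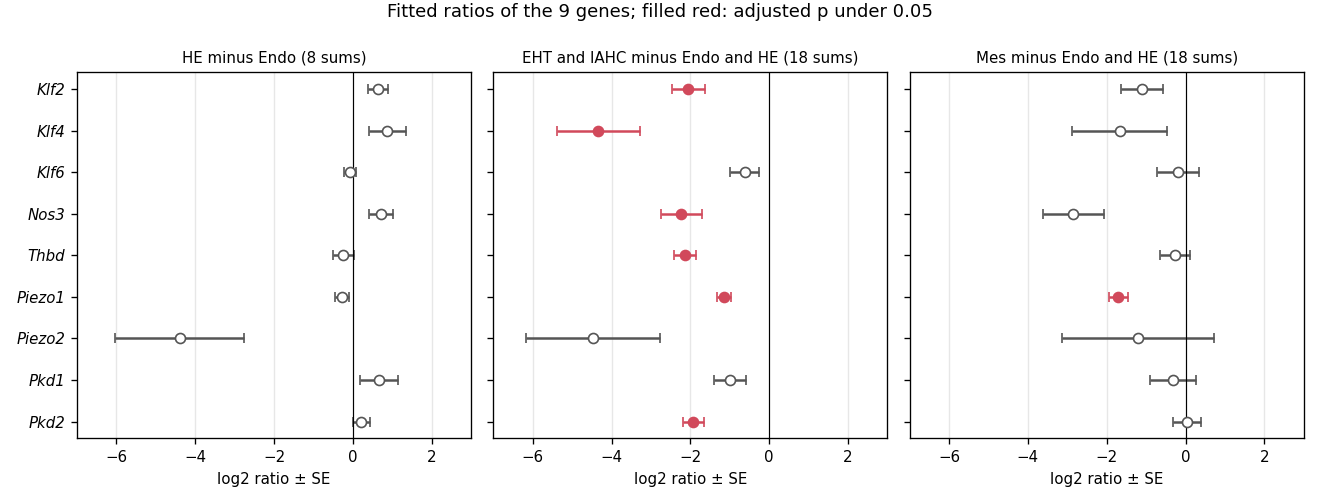
Fitted log2 ratio (x axis) with its standard error for the 9 genes (y axis) in 3 comparisons; filled red points have an adjusted p under 0.05. The comparison of EHT and IAHC with Endo and HE holds 6 filled points, that of Mes holds 1 (Piezo1) and that of HE with Endo holds none.

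Klf2, the zinc finger factor that keeps endothelium quiescent under laminar flow, fell by 2.05 ± 0.42 (SE) on the log2 scale in the transition gates (adjusted p = 0.0184 in edgeR). Its level in Endo was 230.4 CPM at E10.5, 137.4 CPM at E11.5, 462 CPM in the stage-conflict set, 74.4 CPM in the Runx1b line and 30.7 CPM in the ACE set. Over the 6 HE sorts it ranged from 40.6 CPM (ACE set) over a median of 167.3 CPM to 906 CPM (stage-conflict set). Both gates were highest in the stage-conflict set and lowest in the ACE set, and their ranges overlapped. In EHT Klf2 stood at 183.7 CPM at E10.5 and 213.4 CPM in the stage-conflict set, and in IAHC at 75.99 CPM at E10.5 and 6.64 CPM at E11.5. IAHC were lower than EHT, and only the E11.5 IAHC group lay below the endothelial range. Within E10.5, 80.5% of EHT cells and 61.9% of IAHC cells had a Klf2 read. The call was lost without the E11.5 set (adjusted p = 0.0603 in edgeR), the stage-conflict set (0.224) or the Runx1b set (0.0508), and without the set as a block (0.271), with the log2 ratio between -1.40 and -2.01 in these fits.

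Immediate early genes, which cell dissociation is known to induce, also differed between sort sets. Fos was at 2.47 to 3.63 CPM in the 3 sorts of the ACE set, where Klf2 was at 30.7 to 45.02 CPM, and at 14.8 to 626 CPM in all other groups. Egr1 was also low in the ACE sorts (9.23 to 30.05 CPM). Jun (97.3 to 219.5 CPM) and Atf3 (28.9 to 81.01 CPM) lay there inside the ranges of the other groups. The stage-conflict set had the highest summed level of 19 immediate early and dissociation genes, with 4340 CPM in Endo and 4319 CPM in HE and also the highest Klf2 of these gates. In the ACE set these genes summed to 1962 CPM in Endo, 1572 CPM in HE and 1563 CPM in ACE+. That was above E11.5 IAHC (772 CPM) and near the HE sort titled KO (1891 CPM). Over the 19 groups Klf2 and Fos had a Pearson r of 0.645 and a Spearman rho of 0.632 on log2(CPM + 1). Groups of a set share a sort, and the part of dissociation in the Klf2 level was not tested. For Nos3, the same correlation with Fos was -0.185.

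**Figure D3:**
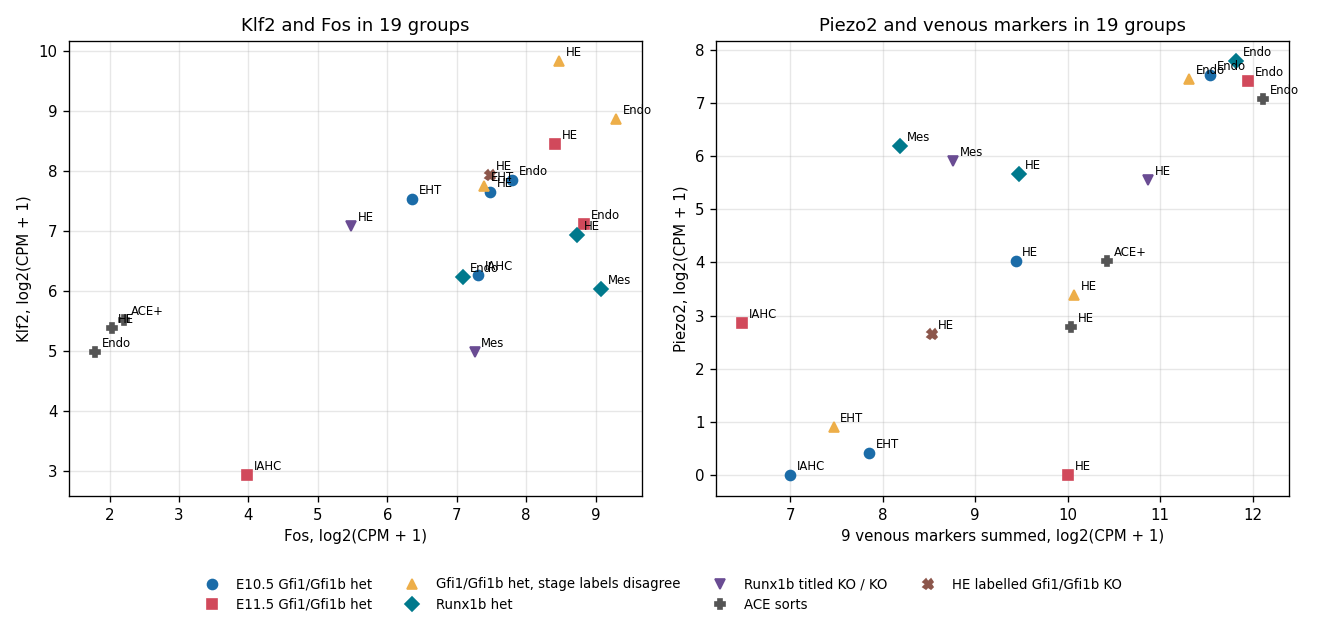
Left, Klf2 against Fos, and right, Piezo2 against the sum of 9 venous markers, all as log2(CPM + 1), 1 point per group, labelled with its gate. The ACE set has the lowest Fos together with low Klf2 (30.7 to 45.02 CPM), and the 5 Endo groups sit together at the upper right of the Piezo2 panel.

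Klf4, the close relative of Klf2 that acts with it downstream of shear, fell by 4.34 ± 1.05 on the log2 scale in the transition gates (adjusted p = 0.0381 in edgeR). It was at 52.1 CPM in Endo at E10.5, 22.4 CPM at E11.5, 115.4 CPM in the stage-conflict set, 30.97 CPM in the Runx1b line and 8.58 CPM in the ACE set. The HE sorts spanned 23.6 CPM to 100.2 CPM with a median of 36.4 CPM. EHT held 6.60 CPM at E10.5 and 15.9 CPM in the stage-conflict set, and IAHC 3.80 CPM at E10.5. At E11.5 no read of Klf4 was found in 22 IAHC cells (exact 95% interval up to 15.4% of cells), against 13 of 40 HE cells with a read. With 3 reads set in IAHC, HE of that set was 2708-fold higher. That fold is one of summed reads and is no lower limit, since 1 cell with reads could change it. All transition groups lay below the HE groups of the fit, although the stage-conflict EHT was above the HE cells labelled Gfi1/Gfi1b KO (14.3 CPM), and the ACE Endo sort, where 1 of 14 cells carried all Klf4 reads, lay among the transition groups. Single cells weighed heavily in EHT and IAHC too: 97.9% of the Klf4 reads of E10.5 IAHC came from 1 cell, as did 79.2% of those of the stage-conflict EHT. Without the stage-conflict set the adjusted p rose to 0.257 (edgeR), without the Runx1b set to 0.105, without the titled-KO set to 0.0624 and without the ACE set to 0.0575, while the log2 ratio stayed between -4.30 and -4.74. It was -8.72 without the E10.5 set, where the transition groups left are stage-conflict EHT and E11.5 IAHC.

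Klf2 and Klf4 ran in parallel over the 19 groups (Pearson r = 0.803 on log2 levels, a description, as groups share sets). In cells thinned to 100000 reads, both were found in 28.6% of E11.5 Endo cells and 35.6% of E10.5 Endo cells, where independent detection would give 28.1% and 28.3%. In E10.5 HE both were found in 31.6% of cells against 20.95% for independent detection, and in Runx1b HE in 19.85% against 10.4%. These sorts were mixed, with 16.84% erythroid-like cells in the first and 50% of cells with 10 or more endothelial markers in the second. Other HE sorts had 35.1% against 27.5% at E11.5, 25.2% against 18.6% when titled KO and 24.3% against 20.1% in the ACE set. Stage-conflict HE had 43.6% against 41.35%, and HE labelled Gfi1/Gfi1b KO had 25% against 25.4%. The part of mixed makeup was not tested. Klf4 without Klf2 was found in 1 of 95 E10.5 HE cells and in none of 73 E10.5 Endo cells. In the Runx1b line, 52 HE cells had both and 10 had Klf4 alone, and in the HE sort titled KO 69 had both and 13 had Klf4 alone. In heterozygous Mes 7 cells had both and 9 had Klf4 alone.

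Klf6, which is induced by injury and by many stimuli besides flow, had the smallest transition ratio of the 9 genes. Its Endo levels were 165.2 CPM at E10.5, 124.4 CPM at E11.5, 306.9 CPM in the stage-conflict set, 98.4 CPM in the Runx1b line and within that range in the ACE set. HE ranged from 92.5 over 128.8 to 351 CPM, Mes had 100.3 and 125.3 CPM, and EHT had 109.4 and 202.2 CPM. These gates overlapped throughout. The 2 IAHC groups, at 30.7 CPM (E10.5) and 81.9 CPM (E11.5), were below all the others when every cell was counted. Without erythroid-like cells E11.5 IAHC had 179.7 CPM, inside the Endo range, and only E10.5 IAHC stayed below. The transition ratio of -0.63 ± 0.38 did not pass (adjusted p = 0.436 in edgeR), whereas without the E11.5 set it was -1.60 and passed (0.00146). In E11.5 IAHC, 55.2% of the Klf6 reads were those of 1 cell.

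Nos3, which makes nitric oxide in endothelium, fell by 2.23 ± 0.52 on the log2 scale in the transition gates (adjusted p = 0.0316 in edgeR). Endo held a narrow range, with 79.2 CPM at E10.5, 71.4 CPM at E11.5, 89.7 CPM in the stage-conflict set, 82.7 CPM in the Runx1b line and 53.3 CPM in the ACE set (75.3 ± 13.9, mean and SD, n = 5). HE ran from 67.6 CPM (Runx1b line) over a median of 132.3 CPM to 178.2 CPM (titled KO). EHT held 31.2 and 37.9 CPM, IAHC 2.77 CPM at E10.5 and 14.4 CPM at E11.5, so that no transition group reached any endothelial group. E11.5 IAHC had 37.06 CPM once erythroid-like cells were left out. That lay within the EHT values and below the lowest endothelial group counted that way (53.3 CPM, ACE Endo). The step from EHT to IAHC at E10.5 was 11.3-fold, and cells with a read went from 60.98% to 16.7%. Without the E10.5 set the adjusted p was 0.0798 (edgeR, log2 ratio -1.66), without the stage-conflict set 0.247 and without the Runx1b set 0.0738.

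Thbd, the thrombin-binding anticoagulant of the endothelial surface, fell by 2.13 ± 0.29 on the log2 scale (adjusted p = 0.00232 in edgeR). It was at 67.3 CPM in Endo at E10.5, 127.2 CPM at E11.5, 178.4 CPM in the stage-conflict set, 108.1 CPM in the Runx1b line and 49.8 CPM in the ACE set. HE ranged from 37.9 CPM over a median of 81.7 CPM to 92.8 CPM. The transition groups were at 16.1 and 18.6 CPM in EHT and 14.95 and 14.14 CPM in IAHC, below every endothelial group of the fit. Without erythroid-like cells E11.5 IAHC had 39.5 CPM, which was still below the lowest endothelial group of the fit counted that way (49.8 CPM, ACE Endo). Thbd passed under each of the 14 alternative fits. The HE cells labelled Gfi1/Gfi1b KO, outside that fit, were lower still, at 9.30 CPM. Thbd was not restricted to endothelium, since Mes held 93.2 and 66.6 CPM, within the endothelial range.

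Piezo1, the channel that opens when endothelial membrane is stretched or sheared, fell by 1.14 ± 0.17 on the log2 scale in the transition gates (adjusted p = 0.00423 in edgeR). Its Endo levels were 82.4 CPM at E10.5, 185.4 CPM at E11.5, 147.1 CPM in the stage-conflict set, 75.9 CPM in the Runx1b line and 126.4 CPM in the ACE set. HE spanned 59 to 121.3 CPM with a median of 96.3 CPM. EHT held 39.8 and 59.2 CPM and IAHC 43.9 and 26.3 CPM, so that the highest EHT group touched the lowest HE group of the fit. E11.5 IAHC had 45.4 CPM once erythroid-like cells were left out. A read was found in 70.7% and 85.7% of EHT cells, 73.8% of E10.5 IAHC cells and 45.45% of E11.5 IAHC cells, against 71.6% of E10.5 Endo cells. The fall of Piezo1 was thus among the smaller ones, and the call was lost only without the stage-conflict set (adjusted p = 0.069 in edgeR, log2 ratio -1.14).

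Piezo2, the touch channel of sensory neurons and the other member of the family, was lower in HE than in Endo in every set. Endo held 183.2 CPM at E10.5, a similar level at E11.5 (1.08-fold lower), 173.4 CPM in the stage-conflict set, 219.2 CPM in the Runx1b line and 134.5 CPM in the ACE set (175.9 ± 30.4, mean and SD, n = 5). HE held 15.3, 0, 9.46, 49.6 and 5.87 CPM in the same order of sets, and 45.6 CPM in the titled-KO sort. The gates did not overlap, and within sets the fold was 12 at E10.5, 18.3 in the stage-conflict set, 4.42 in the Runx1b line and 22.9 in the ACE set. None of 40 E11.5 HE cells had a read (exact interval up to 8.81% of cells). With 3 reads set in HE, Endo of that set was 4842-fold higher. That fold is one of summed reads and is no lower limit, since a cell with reads could change it.

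The share of cells with a Piezo2 read was also lower in HE than in Endo in each set. A Piezo2 read was found in 77.03% of E10.5 Endo cells (exact 95% interval 65.79% to 86.01%) and in 20% of E10.5 HE cells (12.5% to 29.5%). In the ACE set it was found in 92.9% of Endo cells, 20.7% of ACE+ cells and 33.3% of HE cells, and in thinned cells in 92.3%, 22.7% and 13.5%, so the order of ACE+ and HE turned with depth. Piezo1 had reads in 71.6% of E10.5 Endo cells and 77.9% of E10.5 HE cells. In cells thinned to 100000 reads, both channels were found together in 53.4% of E10.5 Endo cells and 12.6% of E10.5 HE cells.

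**Figure D4:**
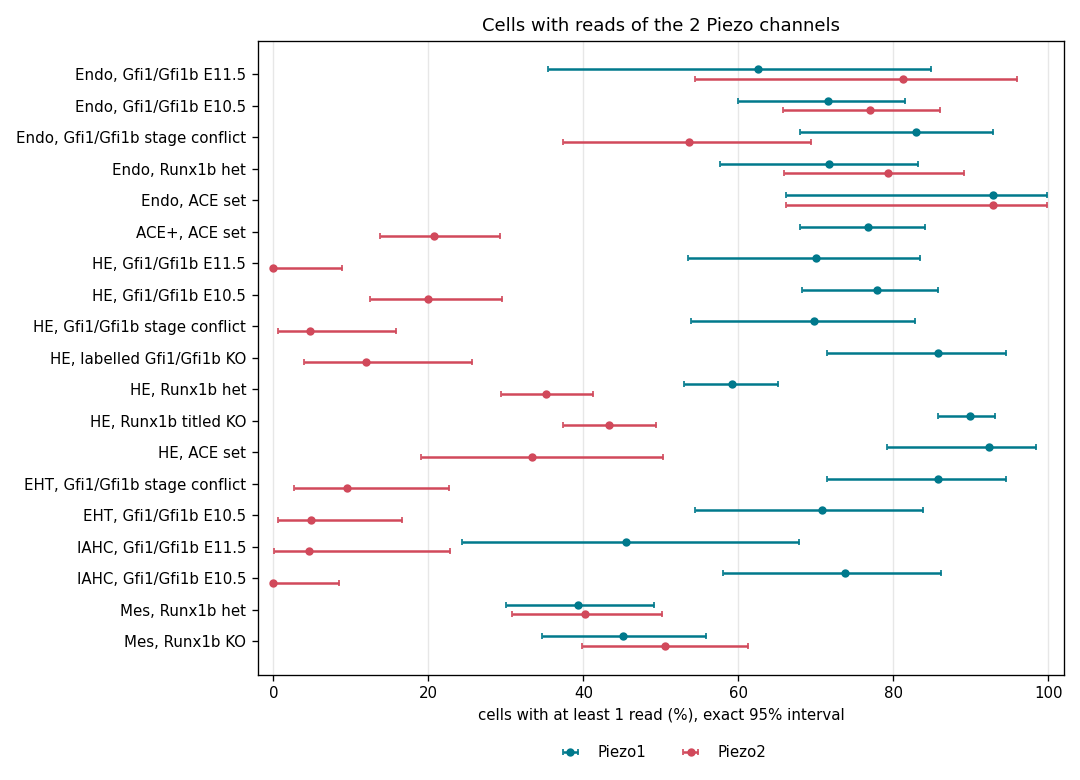
Share of cells with at least 1 read of Piezo1 (green) or Piezo2 (red) on the x axis, with exact 95% intervals, in the 19 groups on the y axis, ordered by gate. Piezo2 reads were found in 53.7% to 92.9% of cells in the 5 Endo groups and in 0% to 43.3% of cells in the HE groups, while Piezo1 stayed at or above 59.2% in both gates.

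The test of HE against Endo used 8 sums in 4 sort sets and 14553 genes, and none of the 9 genes passed (edgeR's quasi-likelihood F-test). In this comparison 0.886% of genes rose and 0.515% fell, 2817 genes had an unadjusted p under 0.05, and 2 of these were among the 9. Piezo2 had a log2 ratio of -4.40 ± 1.64 (unadjusted p = 0.0375, adjusted p = 0.227) and Klf2 one of 0.64 ± 0.25 (unadjusted p = 0.0422, adjusted p = 0.239). DESeq2 also called 0 of the 9, although it called 17.8% of the genes. With cells thinned to 100000 reads Piezo2 passed (-3.67, adjusted p = 0.0342). The Runx1b set was the one with the smallest Piezo2 difference, and its HE sort is the one with 50% of cells under 10 endothelial markers. Its HE cells with 10 or more markers had 30.5 CPM of Piezo2, against 49.6 CPM over all cells.

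Nos3 had a ratio of 0.71 ± 0.31 (adjusted p = 0.283, edgeR) and was higher in HE than in Endo in 3 of the 4 sets, 3.23-fold in the ACE set, 1.74-fold at E11.5 and 1.26-fold at E10.5. In the Runx1b set it was 1.22-fold lower when every cell was counted. Among cells of this set with 10 or more endothelial markers it was higher in HE, at 145.1 CPM against 82.7 CPM in Endo. With such cells in all sets the ratio was 0.96 (adjusted p = 0.067, edgeR). Klf4 (0.87 ± 0.48) and Pkd1 (0.66 ± 0.48) had ratios of like size but with opposite signs between sets. At E10.5 Pkd1 was 2.26-fold lower in HE, and at E11.5 it was 3.88-fold higher. The remaining ratios were -0.28 for Piezo1, -0.25 for Thbd, 0.22 for Pkd2 and -0.08 for Klf6.

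Markers of other cell types also differed between Endo and HE. In the tested comparison 5 of 6 erythroid markers, 2 of 10 hematopoietic (Spi1 and Gfi1, a gene of the gate), 1 of 6 mesenchyme (Prrx1) and 1 of 2 smooth muscle markers (Cnn1) rose. The 9 erythroid markers summed to 1.85 to 47.9 CPM in the Endo groups of that comparison, to 13.4 CPM in ACE HE and to 2736 to 145600 CPM in its other HE groups. Without erythroid-like cells Piezo2 had a ratio of -4.34 and Nos3 one of 0.74, and the part of the other markers was not tested. Arterial and venous markers differed as well. The 9 venous markers summed to 2546 to 4428 CPM in the 5 Endo sorts and to 693 to 1872 CPM in the 6 HE sorts. Nr2f2, the transcription factor that defines veins, was at 55.6 CPM or more in Endo and at 0 to 5.73 CPM in HE, except for 46.7 CPM in Runx1b HE. In the tested comparison 3 of 9 venous markers fell (Flt4 by 2.38, Nrp2 by 5.25 and Emcn by 1.09 on the log2 scale) and 4 of 12 arterial markers rose (Nrp1, Jag1, Gja5 and Hey2). ACE+ cells without GFI1, with 1379 CPM of venous markers, had 15.3 CPM of Piezo2, 8.79-fold less than Endo of the same set. In thinned cells, Nr2f2 and Piezo2 reads occurred together in 57.5% of E10.5 Endo cells against 49.4% for independent detection, and in 43.9% against 27.5% in the stage-conflict Endo. The other 3 Endo groups differed less from independent detection, with 78.6% against 73.5% at E11.5, 73.3% against 71.1% in the Runx1b line and 76.9% against 78.1% in the ACE set. Over the 19 groups Piezo2 and the venous sum had a Pearson r of 0.707. The part of vessel type in the Piezo2 difference was not tested, and the pairing with Nr2f2 was chosen after the Piezo2 values were seen.

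Piezo2 had few or no reads in EHT and in E10.5 IAHC. EHT held 0.340 CPM (7 reads) at E10.5 and 0.863 CPM (13 reads) in the stage-conflict set, and no read was found in 42 IAHC cells of E10.5. In E11.5 IAHC it was at 6.25 CPM, and all 538 of those reads lay in 1 erythroid-like cell. The transition ratio was -4.47 ± 1.69 and did not pass (adjusted p = 0.173 in edgeR). It was -10.20 and passed without erythroid-like cells (0.0173), and leaving out E11.5 it also passed (0.00103), with thinned cells (0.032), without the block (0.0358) and in DESeq2 (0.018). Fitted ratios this large rest on groups with 0 reads and depend on the offset added in the fit.

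Pkd2, the cation channel of the polycystin pair, fell by 1.93 ± 0.27 on the log2 scale in the transition gates (adjusted p = 0.0025 in edgeR) and passed under each of the 14 alternatives. Endo held 41.7 CPM at E10.5, 53.7 CPM at E11.5, 81.4 CPM in the stage-conflict set, 60.9 CPM in the Runx1b line and 33.5 CPM in the ACE set. HE ranged from 30.03 over 53.6 to 83.8 CPM. EHT held 10.49 and 28.75 CPM and IAHC 11.3 and 5.66 CPM, all below the endothelial groups of the fit. The HE cells labelled Gfi1/Gfi1b KO, outside the fit, were at 23.5 CPM, below the higher EHT group. In E11.5 IAHC the reads were those of 1 cell, and the level was 17.6 CPM once erythroid-like cells were left out.

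Pkd1, its large receptor-like partner, was lower in the mean but overlapped (-0.99 ± 0.40, adjusted p = 0.207 in edgeR). Its levels were 32.3 to 77.1 CPM in Endo, 21.6 to 87.8 CPM in HE outside E11.5, where HE was 6.35-fold above E10.5 HE, 23.02 and 41.44 CPM in EHT, and 10.7 and 27.2 CPM in IAHC. Without erythroid-like cells E11.5 IAHC had 84.4 CPM, above every Endo group counted that way. The share of cells with a Pkd1 read was not lower in EHT (41.5% and 64.3%) than in E10.5 Endo (32.4%). Pkd1 thus did not show the separation seen for Pkd2.

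In the mesenchymal gate, Piezo1 alone of the 9 genes differed from endothelium past the threshold. It fell by 1.70 ± 0.25 on the log2 scale (adjusted p = 0.0135, edgeR's quasi-likelihood F-test in the 18-sum fit), with 24.8 and 29.8 CPM in the 2 Mes groups against 59 to 185.4 CPM in the Endo and HE groups of the fit. In this contrast 0.798% of all genes fell and 6 genes rose. The call was lost without the Runx1b set (adjusted p = 0.308, log2 ratio -2.06), the titled-KO set (0.21) or the stage-conflict set (0.056). Nos3 was as low, at 8.16 CPM in heterozygous and 31.6 CPM in KO Mes, below all endothelial groups, with a ratio of -2.84 ± 0.77 that did not pass (adjusted p = 0.201). Nos3 passed in DESeq2 (adjusted p = 0.00125), and in edgeR it did so when E11.5 was left out (0.0175).

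The other genes had no call in Mes. Pkd2 was at 66.2 and 68.6 CPM and Thbd at 93.2 and 66.6 CPM. Piezo2 stood at 71.7 and 58.7 CPM, above all HE groups and below all Endo groups. Klf2 was at 64.2 CPM in heterozygous and 30.7 CPM in KO Mes, and Klf4 at 13.7 and 6.17 CPM. The heterozygous values lay inside the endothelial range of the fit, above those of ACE Endo, and the KO values at or below its lower end. Their ratios were -1.10 ± 0.53 for Klf2 and -1.67 ± 1.21 for Klf4. Pan-endothelial markers summed to 727 CPM in heterozygous and 3039 CPM in KO Mes, which also had more Nos3. Heterozygous Mes held macrophage genes, with 543 CPM over all 8 markers and Csf1r at 92.1 CPM. In KO Mes, 1 of the 8 had reads. The part of other cells in the Mes values was not tested.

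Other genes of the pathway were read from lists of known members. Of 14 further genes that flow is known to raise, 6 fell and 0 rose in the transition gates (median log2 ratio -1.83), among them the sphingosine phosphate receptor S1pr1 (-1.86, adjusted p = 0.000421 in edgeR), Slc9a3r2 (-2.22), the heme oxygenase gene Hmox1 (-2.42) and the angiopoietin receptor Tek (-2.06). Of 10 genes that laminar flow is known to lower, 5 fell as well (median -3.39), among them Cyr61 (-3.29), Icam1 (-1.81) and the vasoconstrictor endothelin gene Edn1 (-3.48). Genes of both kinds thus fell in these gates. Of 18 further mechanosensors, 11 fell, led by the VEGF receptors Kdr (-3.42) and Flt4 (-4.22), by the guidance receptor Plxnd1 (-2.33) and by the integrin subunit Itga5 (-1.46). Kdr, Pecam1, Cdh5 and Eng of this list are also pan-endothelial markers.

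Fewer genes of the signalling and ciliary lists passed the test. Of 12 genes of the ERK5 cascade and the CCM complex, 2 fell, the receptor gene Heg1 (-1.60) and Mapk7 (-1.27), which encodes ERK5 itself, and 0 rose (median -0.15). Of 14 genes of the primary cilium, 1 rose (Ift57, 1.58) and 1 fell (Tulp3, -1.26). In the nitric oxide list of 14 genes, 3 fell, among them the Nos3 inhibitor caveolin Cav1 (-5.36) and Ddah2 (-1.03), and 2 rose, among them the nitric oxide receptor subunit Gucy1b3 (4.35). Of 12 anticoagulant and fibrinolytic genes, 2 fell, Anxa2 (-4.05) and Plat (-7.48), and of 12 other KLF genes 2 fell, Klf7 (-1.82) and Klf13 (-0.72). In the immediate early list of 19 genes, Junb (-2.18), Dusp1 (-1.25) and Cyr61 fell and Hsp90aa1 rose (0.67).

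In HE against Endo, 2 of 13 flow-raised genes rose, the semaphorin Sema3g (2.10, adjusted p = 0.0354 in edgeR) and Ass1 (1.95, 0.0364), which recycles citrulline to the substrate of Nos3. Of 17 mechanosensors, Flt4 fell (-2.38). Of 9 flow-lowered genes, Edn1 rose (3.41) and the vascular tip-cell peptide Apln fell (-7.30). The protein C receptor Procr, a partner of Thbd, rose (2.97), the protease Plau fell (-2.68), and the nitric oxide list had 1 gene lower, Gchfr (-3.49). No gene of the ciliary, ERK5 or other-KLF lists passed, and the largest ratios there were those of Dync2h1 (1.51), Mef2a (-0.71) and Klf5 (6.60, adjusted p = 0.212). In Mes, 1 of 10 flow-lowered genes (Icam1, -3.71) and 1 of 14 nitric oxide genes (Gchfr, -4.65) fell, and no gene of the ciliary, ERK5, anticoagulant, other-KLF or immediate early lists passed. Of the flow-raised genes, 3 of 14 fell, S1pr1 (-2.26), Tek (-3.26) and Slc9a3r2 (-1.80), as did 8 of 18 mechanosensors, led by Eng (-3.39) and Kdr (-3.46), while 18 of 20 pan-endothelial markers fell too.

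Stages and genotypes gave 1 sample against 1 and carry no test. At E11.5 against E10.5, HE held more Pkd1 (6.35-fold above 21.6 CPM), Klf4 (94.4 against 30.6 CPM) and Pkd2 (83.8 against 35.8 CPM). The share of HE cells with a read was 50% against 32.6% for Pkd1, but 32.5% against 34.7% for Klf4 and 45% against 46.3% for Pkd2. In E11.5 HE, 1 cell held 30.5% of the Pkd1 reads, 1 held 22.3% of the Klf4 reads and 1 held 22.7% of the Pkd2 reads. In Endo, Klf4 was 2.33-fold lower at E11.5, where 42.86% of its reads lay in 1 of 16 cells, and Piezo1 was 2.25-fold higher. In thinned cells Klf4 was at 42.1 CPM in E11.5 and 54.9 CPM in E10.5 Endo, and Piezo1 at 190.7 against 87.8 CPM. Depth differed between these stages, with median reads per cell of 508629 in E10.5 and 2777264 in E11.5 Endo, and 16.84% of E10.5 HE cells were erythroid-like against 5% at E11.5. Without erythroid-like cells E10.5 HE had 28.5 CPM of Pkd1, 40.2 CPM of Klf4 and 47.3 CPM of Pkd2, still below E11.5.

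In HE cells labelled Gfi1/Gfi1b KO, Thbd was 4.07-fold lower than in heterozygous HE (9.30 against 37.9 CPM) and Klf6 was 1.77-fold higher (240.2 against 135.7 CPM). Nos3 was at 101.2 against 100 CPM and Piezo1 at 58.1 against 67.2 CPM. In HE cells titled KO of the Runx1b line, Nos3 was 2.63-fold higher than in the heterozygous sort (178.2 against 67.6 CPM), and Piezo1 (99.99 against 59 CPM) and Klf6 (161.3 against 95.7 CPM) were higher as well. These sorts differ in makeup: 97.83% of the titled-KO cells and 50% of the heterozygous cells had 10 or more endothelial markers. Among cells with 10 or more markers, Nos3 was at 180.6 against 145.1 CPM and Piezo1 at 100.7 against 107.5 CPM, so the Piezo1 difference was not seen there. Klf2 reached 254.4 CPM among such heterozygous HE cells and 136.3 CPM in those titled KO.

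In the ACE set, the ACE+ GFI1- cells held more Nos3 than any other of the 19 groups, 3.98-fold above Endo (53.3 CPM), and HE held 172.3 CPM. Piezo1 (169.5 against 126.4 CPM) and Pkd1 (101.2 against 53.6 CPM) were also higher in ACE+ than in Endo cells. The arterial markers summed to 10790 CPM in ACE+ cells, 9138 CPM in HE and 1390 CPM in Endo of this set. Across the 19 groups the arterial sum and Nos3 had a Pearson r of 0.903, and the pan-endothelial sum and Piezo1 one of 0.894, both as descriptions.

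For each gene up to 2 genes with the most similar pattern over the 19 groups were taken by Pearson r of log2(CPM + 1) among 8727 genes. Pkd2 was closest to Lats2 (0.961) and Tcf7l1 (0.936), and Nos3 to Ablim1 (0.960) and Prex2 (0.956). Piezo2 was closest to Tln2 (0.959) and Mcc (0.914), Klf4 to Skil (0.944) and Acap2 (0.903), and Piezo1 to Dram2 (0.936) and Naa60 (0.914). Klf2 was closest to Slk (0.928), Thbd to Etl4 (0.918) and Nfia (0.911), and Pkd1 to Slc35b3 (0.886) and Gulp1 (0.879). Klf6 had the weakest likeness, with Gadd45g (0.815) and Efnb2 (0.770). Among the 9 genes themselves the highest r was 0.839, for Thbd and Pkd2, and Piezo1 and Piezo2 reached 0.266.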

How the data were processed

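Reads per gene and cell were deposited by the authors as raw counts in 2 tables of 1288 and 169 cells, in whole numbers with totals that differ between cells. The submitters' processing notes name STAR 2.4.2a, HTSeq 0.6.1p1 and GRCm38. Strand setting and cell filters are not stated there, so reads of antisense or overlapping genes cannot be told apart. As read here, the larger table stops partway through a row (1 row cut off), and both tables were restricted to the 36131 genes they share, which leaves out 10.1% of the reads of the ACE table. Reads per cell ranged from 12 to 5652968 (median 598000), without molecular identifiers, so intervals cover counting error only. The main values use every cell, and no doublet caller was run. The largest groups were Runx1b HE (262 cells, and 277 titled KO), ACE+ (116) and Runx1b Mes (107).

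Cells were summed per group. Comparisons used edgeR 4.0.16 in R 4.3.3 (filterByExpr by gate, TMM scaling, sort set as a block, quasi-likelihood F-test, Benjamini-Hochberg adjustment over all genes tested, threshold 0.05), on 8 sums with 3 residual degrees of freedom for HE against Endo and 18 sums in 6 sets with 7 for the other contrasts. Sets differ in stage, genotype or sort and their numbers of embryos are unknown. The p-values measure the spread between these sums, which may be partly technical. Other comparisons have 1 sample a side and no test. CPM have exact Poisson and shares of cells exact Clopper-Pearson intervals at 95%, and 3 reads stood for a count of 0 in folds. In list results, up to 4 genes past the threshold with the lowest adjusted p were named, or the largest ratios where none passed. Alternatives were relative log expression scaling, DESeq2 1.42.0, no filter, no block, each set left out, cells thinned to 100000 reads, cells without erythroid-like or with endothelial markers, and without 13 misspelt titles; HE against Endo was also fitted with the stage-conflict set and within all 18 sums. The fitting script was tested on simulated data. The 9 genes, the lists and the tests were chosen with earlier results of these data known. Some genes that the naming rule or the lists cover are not reported here.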

Additional observations from a re-analysis of the deposited data

Results flagged for a closer look

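Among the 6 HE sorts other than that labelled Gfi1/Gfi1b KO, the stage-conflict sort lay far above the others for Klf2 and Klf6. It had 906 CPM of Klf2 where the next was 347.5 CPM, and 350.8 CPM of Klf6 where the next was 161.3 CPM. Its Endo partner also had the highest Endo values of both genes (462 and 307 CPM). For Thbd the E10.5 HE sort lay far below the others of these 6, at 37.9 CPM where the next was 75.3 CPM. Without its erythroid-like cells, Thbd there was at 50.1 CPM. The gap test was made for 9 genes in 2 gates, 18 in all, and chance flags about 1 in 20. The HE sort labelled Gfi1/Gfi1b KO was left out of it and had 9.30 CPM of Thbd and 240.2 CPM of Klf6. E10.5 HE was thus not the lowest of all HE sorts for Thbd.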

How the results depend on the processing

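The share of genes called moved with the tool and the sets more than the ratios of the 9 genes did. For HE against Endo, 1.4% of genes were called, against 17.8% in DESeq2, 0.599% with no filter, 3.04% without the set as a block, 6.78% with thinned cells and 3.47% with cells of at least 10 endothelial markers. With a set left out it was between 0% (edgeR without the ACE set) and 0.895%. Of the 9 genes 0 were called, except 1 (Piezo2) with thinned cells. Klf6 turned from -0.08 to 0.024 with all 18 sums in one fit. For the transition gates 6.35% were called, against 22.9% in DESeq2, 10.2% without the block and 11.6% with thinned cells, and between 1.28% (without the stage-conflict set) and 6.75% with a set left out. Of the 9 genes 6 were called, and between 2 (Thbd and Pkd2, without the stage-conflict set) and 7 with a set left out, and no ratio changed sign in the 14 alternatives. For Mes 0.826% were called, against 5.89% in DESeq2, 2.3% without the block, 2.1% with thinned cells and 1.57% with endothelial-marker cells, and between 0% (edgeR without the Runx1b set) and 1.56% with a set left out. Of the 9 genes 1 was called there, 2 in DESeq2, and between 0 and 2 with a set left out. In Mes, the ratio of Pkd2 (0.04) turned to -0.052 without erythroid-like cells and -0.032 with endothelial-marker cells, and lay between -0.131 and 0.123 with a set left out. The ratio of Pkd1 lay between -0.690 and 0.002 with a set left out, and that of Piezo2 was 0.047 without the block. The causes of these shifts were not tested. The sort set, which pairs the gates of a set, was a block in these fits. Beyond it, no paired analysis was possible because the labels give no replicate numbers shared between groups. In the 18-sum fits the HE sort titled KO and the KO Mes cells were joined as a set, which has no Endo group. Their genotype fields differ, so gate and genotype field cannot be told apart within that set. EHT, IAHC and Mes each occur in 2 sets, so few sums carry those contrasts. Of the CPM levels of the 9 genes, 8 moved by over 1.5 times without erythroid-like cells, 5 with thinned cells and 4 as the mean over cells.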
